A study of Mus musculus with 2 samples.

Results

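The cytosolic ribosomal protein genes were examined in RNA of embryonic mouse tongue. Genes were taken by symbol (Rpl and Rps followed by a number and at most 1 of the letters a, l or x, the stalk genes Rplp0, Rplp1 and Rplp2, and Rpsa). Gm9846, a gene model that lies on Rps27, was added. This gave 82 of 22072 gene symbols, of which 32 encode proteins of the small subunit and 49 of the large subunit. Tongues were dissected at embryonic day 12 on a mixed background. Control embryos had 1 floxed copy of Osr1 and 1 normal copy (Osr1f/+). Mutant embryos had 1 floxed and 1 null copy together with Wnt1cre, which is driven in the neural crest lineage (Osr1f/-; Wnt1cre), so both genotypes carried a floxed allele. The control label names no Cre, so the loss of Osr1 and the presence of Wnt1cre cannot be told apart. Per the series' design text, samples were pooled for RNA extraction as 3 pairs of control and mutant. There was 1 library per genotype, so every difference below is between 2 libraries, the spread between embryos is unknown and no test between genotypes was possible. Where 2 values are given for a gene, the control comes first and the mutant second.

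Ribosomal proteins assemble with ribosomal RNA into the small subunit, which reads the mRNA, and the large subunit, which forms the peptide bond. Most of the proteins are present in equal number per ribosome, and nearly all of their mRNAs begin with a terminal oligopyrimidine tract, a run of C and T bases through which growth signals control their translation. Cranial neural crest, which gives rise to the connective tissue of the tongue, is known to be sensitive to defects in ribosome production. The mouse genome holds many processed copies of these genes, made from reverse-transcribed mRNA. They are often nearly identical to the parent gene, so reads can be hard to assign.

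At 6 ribosomal protein genes the deposited tables held a second gene model over the same locus. Whether the sequences of these models had a part in the values listed there was not tested. The 5 described here were Gm9846 on Rps27, Gm15772 on Rpl26, Gm12191 on Rpl30, Rpl34-ps1 on Rpl34 and Gm15450 on Rps23. RefSeq's GRCm38 table places all 6 second genes on another chromosome than the ribosomal protein gene, 4 of them found by accession and 2 by symbol only. The deposited tables, on mm9, listed each of them in 1 row, at the locus of the ribosomal protein gene. Gm9846 (NM_001190258) is named Rps27rt in that RefSeq table. The GENCODE M21 transcript of Rps27rt has 374 bases, while the model Gm9846 was listed with 345 nt on the locus of Rps27. The coding sequence of Rps27rt in that transcript was identical to that of Rps27 over all 255 bases:
Rps27 and Gm9846, coding bases 1 to 255: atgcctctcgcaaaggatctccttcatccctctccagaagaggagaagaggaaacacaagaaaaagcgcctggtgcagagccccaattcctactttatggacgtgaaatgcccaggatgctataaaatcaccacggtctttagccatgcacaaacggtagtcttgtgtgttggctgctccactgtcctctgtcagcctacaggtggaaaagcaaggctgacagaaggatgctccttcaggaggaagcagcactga
Of the 299 windows of 47 bases in the Rps27 transcript, 295 also occurred in the Rps27rt transcript. The 47 bases are the step used to estimate reads from coverage, as the read length is not given.

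The other copies described here were nearly as close. Gm15450 had no mismatch to Rps23 over 425 aligned coding bases, Gm12191 had 1 mismatch to Rpl30, and Gm15772 and Rpl34-ps1 had 2 mismatches each. The lowest coding identity was 99.4%. Both mismatches between Rpl26 and Gm15772 lie in the stretch shown next, and the one between Rpl30 and Gm12191 lies in the shorter stretch after it. Capitals mark the bases that differ, and positions count from the A of the start codon.
Rpl26, coding bases 157 to 308: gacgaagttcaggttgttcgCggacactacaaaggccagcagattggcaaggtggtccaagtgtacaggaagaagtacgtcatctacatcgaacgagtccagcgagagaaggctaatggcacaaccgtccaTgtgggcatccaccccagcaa
Gm15772, coding bases 157 to 308: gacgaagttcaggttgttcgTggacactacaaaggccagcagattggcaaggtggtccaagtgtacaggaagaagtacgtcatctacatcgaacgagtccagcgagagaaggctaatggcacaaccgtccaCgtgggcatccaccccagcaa
Rpl30, coding bases 76 to 116: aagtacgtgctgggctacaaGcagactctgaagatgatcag
Gm12191, coding bases 76 to 116: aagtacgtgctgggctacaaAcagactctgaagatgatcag
Of the 392 windows of 47 bases in the Rpl26 coding sequence, 298 occurred in Gm15772 as well. In Rpl30 the number was 255 of 302 for Gm12191. The transcripts compared have 438 bases for Gm15772 and 348 for Gm12191. The models listed at the loci of Rpl26 and Rpl30 have 520 and 478 nt, and their own sequences were not compared.

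The largest difference of any ribosomal protein symbol was that of Rps27, a zinc finger protein of the small subunit (chromosome 3, 90016589 to 90017570 on mm9). Values are FPKM, fragments per kilobase of transcript scaled to the mapped fragments of the library. In the control library the symbol Rps27 stood at 16.0 FPKM, and in the mutant one at 583 FPKM, 36.4 times as high. Gm9846 (90016589 to 90017569) stood the other way round, at 586 FPKM in the control and at 0.0106 FPKM in the mutant, where 3 reads would give 0.376 FPKM. The control library thus listed nearly all of the signal under Gm9846 and the mutant library under Rps27, which held 2.66% and 99.998% of the locus. The sum of both models was 602 and 583 FPKM, a ratio of 0.968. From about 3927 and 4669 reads the 95% counting interval of this ratio was 0.930 to 1.01, which includes 1. Of the transcripts listed under Rps27, the coding NM_027015 had 14.2 and 580.5 FPKM, while the longer non-coding NR_033727 had 1.81 and 2.07 FPKM. The difference was in the coding transcript, and the longer non-coding one was not compared with Gm9846 in sequence. Why the values were divided in this way was not tested.

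Rpl26, a large subunit protein that also binds p53 mRNA (chromosome 11, 68715068 to 68718036), was the only measured symbol at least 1.5-fold lower, where measured excludes Gm9846 for its status of LOWDATA. It was listed at 6.87 and 2.44 FPKM, a ratio of 0.356 (counting interval 0.229 to 0.559). Gm15772 on the same locus had 289 and 293 FPKM, with the status LOWDATA as well. The sum was 296 and 295 FPKM, a ratio of 0.997 (0.948 to 1.05). Rpl26 as a symbol held 2.32% and 0.827% of its locus, a small part of it in either library.

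At the other shared loci described here the larger value was also listed under the second model on the locus, and in both libraries. Rpl30, a large subunit protein (chromosome 15, 34370263 to 34373031), was listed at 11.6 and 13.9 FPKM, while Gm12191 had 345 and 335 FPKM. Rpl34, also of the large subunit (chromosome 3, 130429749 to 130433226), was listed at 7.82 and 9.69 FPKM, while Rpl34-ps1 had 469.9 and 477 FPKM. In both the ribosomal protein symbol held at most 3.98% of the sum. Rps23, a small subunit protein at the decoding centre (chromosome 13, 91062727 to 91064337), was listed at 29.4 and 24.1 FPKM, and Gm15450 at 68.2 and 75.4 FPKM. Here the symbol held more of the sum, 30.1% and 24.2%, and Gm15450 had the status LOWDATA. The sums gave ratios of 0.979 (0.935 to 1.03) for Rpl30, 1.02 (0.977 to 1.07) for Rpl34 and 1.02 (0.928 to 1.10) for Rps23. Taken by symbol, the ratios of these genes had run from 0.819 in Rps23 to 1.24 in Rpl34.

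**Figure D1:**
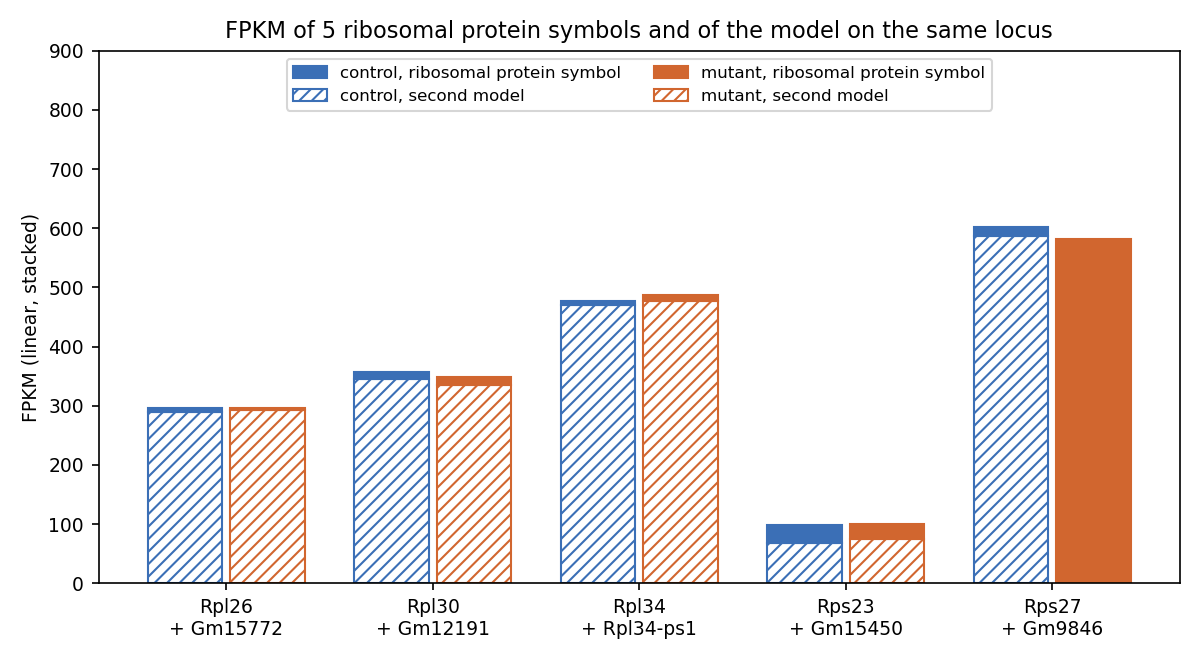
FPKM on a linear axis of 5 of the 6 ribosomal protein symbols with a second model (filled) stacked on the second model of the same locus (hatched), control in blue and mutant in orange, 1 library each. The total height is alike in both libraries at each locus, while at Rps27 the control bar is almost all hatched (586 of 602 FPKM) and the mutant bar all filled (583 FPKM).

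Taken by symbol, 76 of the 82 members were measured, which means at least 1 FPKM in either library and the status OK for all of their rows. Rpl3l, Rpl10l and Rpl39l stayed below 1 FPKM, and Rpl34, Rpl38 and Gm9846 had a row of the status LOWDATA. Of the 76, 2 (2.63%) were at least 1.5-fold apart on the scale of FPKM plus 1 (Rps27 and Rpl26), beside 1.48% of all 12383 measured genes. By direction these were 1 higher (0.896% of all genes) and 1 lower (0.581%). With the models on the same locus summed and rows of any status kept, 78 of 81 loci were measured and 0 were at least 1.5-fold apart, so both calls lay at loci with a second model and neither was present in the sums. Of the 78 loci, 3 (3.85%) were at least 1.1-fold apart on this scale (Rpl36, Rplp2 and Rps2), beside 26.1% of all measured genes. By symbol there were 7 of 76 (9.21%). Genes with fewer reads have more counting error. Among the 334 other genes of at least 100 FPKM in both libraries this share was 7.19%.

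**Figure D2:**
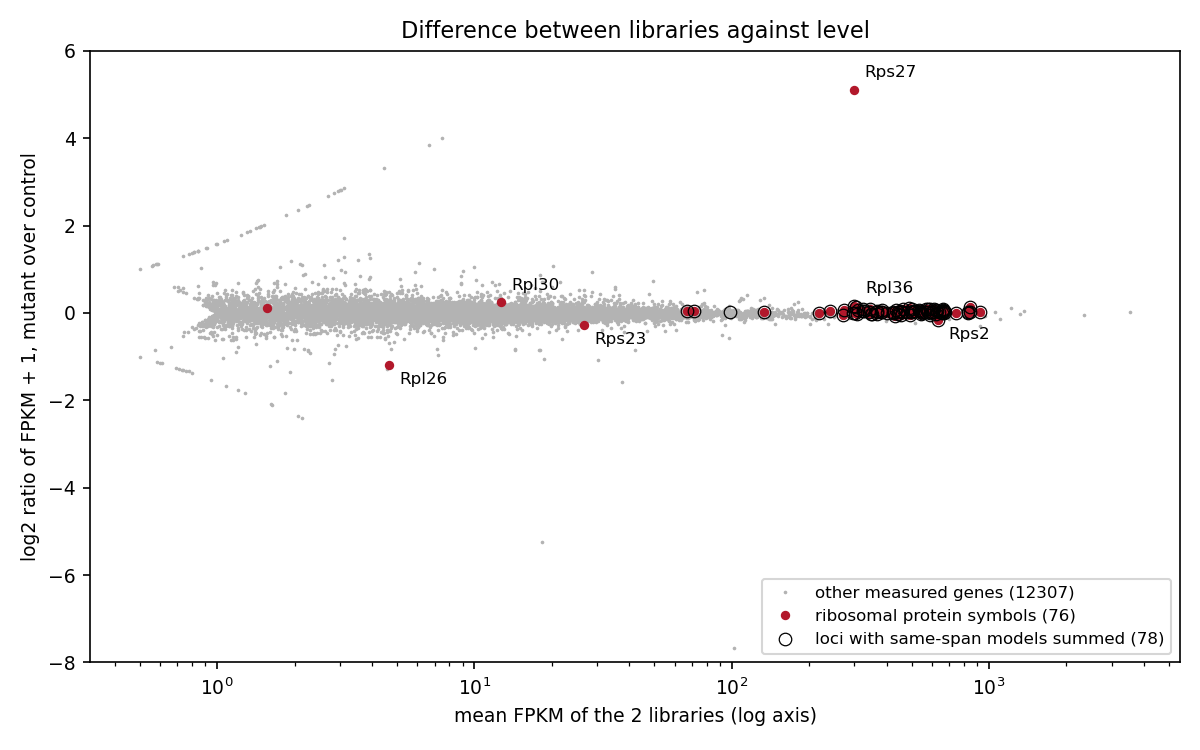
Log2 ratio of FPKM plus 1 (mutant over control) against the mean FPKM of the 2 libraries on a log axis, for 76 ribosomal protein symbols (red), 78 loci with models on the same locus summed (black circles) and the other measured genes (grey). Rps27 at 5.10 and Rpl26 at −1.19 lie apart as symbols, whereas the 78 summed loci lie between −0.17 and 0.16.

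Most loci were slightly higher in the mutant library. Of the 78 loci 58 were higher and 20 lower, beside 51.2% higher and 48.8% lower among all measured genes. Their median log2 ratio was 0.03, a ratio of 1.02, and 63 of the 78 ratios lay between 0.95 and 1.05. The median of all measured genes was 0.0035, and that of the 334 other abundant genes was −0.02, with 123 higher and 211 lower. The small subunit had a median of 0.03, with 25 of 32 loci higher, and the large subunit one of 0.02, with 33 of 46 higher. By symbol the counts were 57 higher and 19 lower of 76. The intervals of 22 loci lay above 1, those of 4 below it and those of 52 included it. The share of all measured genes with such intervals is not given here, so these counts cannot be read as particular to the loci. With 1 library per genotype the spread of these small differences between embryos is unknown, and in pooled tissue fewer cells of a type and less RNA per cell cannot be told apart.

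The loci had much the same levels in both libraries. The control library had a median of 474 FPKM (lowest 66.1, highest 919.6), the mutant library one of 486 FPKM (lowest 67.7, highest 929.6). Log2 values of the 78 loci correlated with r = 0.997, where the points share libraries and depth. Of the 100 most abundant genes, 53 and 54 were ribosomal protein loci. Summed over the loci, they held 12.1% and 12.4% of all FPKM, a measure divided by transcript length. As a share of fragments (FPKM times length) the member symbols of any status held 3.57% and 3.62%. That share leaves out the second models other than Gm9846. The small subunit's summed FPKM was 0.767 and 0.769 of the large subunit's, so the balance of the subunits was nearly alike.

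**Figure D3:**
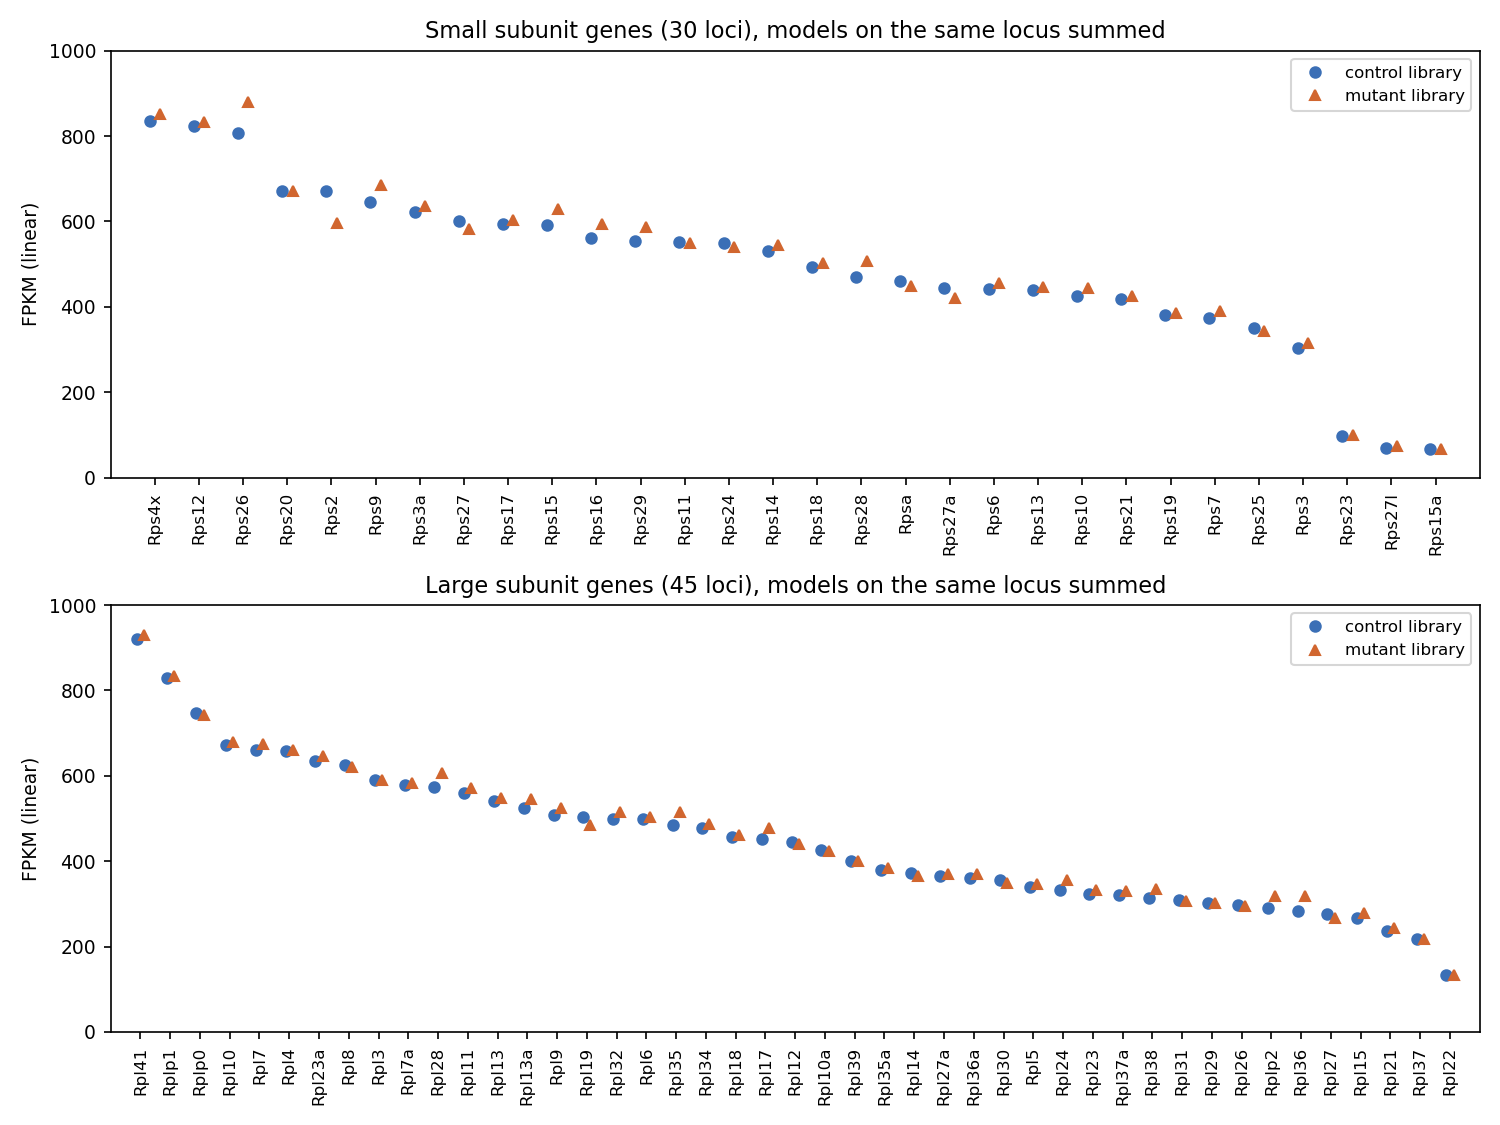
FPKM on a linear axis of 75 of the 78 measured ribosomal protein loci in the control (blue circles) and the mutant library (orange triangles), ordered by the control value, 30 small subunit loci above and 45 large subunit loci below. Paired symbols nearly coincide, and Rps23, Rps27l and Rps15a lie below 100 FPKM in both libraries.

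The most abundant members were Rpl41, a very short basic peptide at the subunit interface, Rps26, Rps4x, Rplp1 and Rps12. Rpl41 had 919.6 and 929.6 FPKM, a ratio of 1.01 (0.981 to 1.04). Rps4x, the X-linked form of a small subunit protein, had 836 and 852 FPKM, and Rps12, a protein of the small subunit's beak, had 824 and 833 FPKM. The counting intervals of these 3 included 1. The lowest loci were Rps15a with 66.1 and 67.7 FPKM, Rps27l with 70.2 and 72.7 FPKM and Rps23 with 97.7 and 99.5 FPKM. The Rps15a value was divided by a listed transcript length of 5134 nt, the longest of any member, which lowers its FPKM.

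The small subunit held the lowest ratio and several of the highest. Rps2, a protein at the mRNA entry channel (chromosome 17, 24857008 to 24858872), had 670.4 and 595 FPKM, from about 12634 and 13741 reads. Its ratio of 0.888 (0.867 to 0.910) was the lowest of the 78 loci. Rpsa, which is also known as a laminin receptor, had 460.5 and 449 FPKM, a ratio of 0.974 (0.954 to 0.995). Rps24, mutated in some patients with Diamond-Blackfan anaemia, had 550.2 and 539 FPKM with an interval that included 1 (0.953 to 1.01). All 3 were lower in the mutant library, and Rps2 alone lay outside 1.1-fold. In the other direction, Rps26, which contacts the mRNA at the exit channel, had 808 and 881 FPKM, a ratio of 1.09 (1.06 to 1.13). Rps28, which lies close to it, had 470.2 and 508 FPKM, a ratio of 1.08 (1.03 to 1.13). Rps27a, whose locus overlaps another model, is made as a fusion with ubiquitin. It had 444 and 421 FPKM, the second lowest ratio at 0.947 (0.915 to 0.981).

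In the large subunit the differences were of the same size. Rpl36 had 283 and 317 FPKM, from about 2173 and 2983 reads, the highest ratio of the 78 loci at 1.12 (1.06 to 1.19). Rpl24, which bridges the subunits, had 333 and 355 FPKM, and its ratio was 1.07 (1.03 to 1.11). Rpl19, another bridge protein, had 503 and 485 FPKM, a ratio of 0.964 (0.933 to 0.995). Rpl27 had 277 and 267 FPKM, with an interval that included 1 (0.923 to 1.01).

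Beyond these genes, other loci had intervals above 1 with ratios of 1.03 to 1.07. In the small subunit they included Rps3, Rps6, Rps7, Rps9, Rps10, Rps15, Rps16 and Rps29. Rps6, the protein phosphorylated by the S6 kinases, had 442 and 456 FPKM, a ratio of 1.03 (1.01 to 1.06). Rps3, which sits at the mRNA entry channel and also acts in DNA repair, had 303 and 316 FPKM, a ratio of 1.04 (1.02 to 1.07). Rps9, whose product lies at the decoding side of the subunit, had 645.6 and 685 FPKM, a ratio of 1.06 (1.03 to 1.09). In the large subunit they included Rpl13a, Rpl15, Rpl17, Rpl28, Rpl35 and Rpl38. Rpl13a, known for its part in the interferon-induced inhibitor of translation, had 524 and 545 FPKM, a ratio of 1.04 (1.01 to 1.07). Rpl17, at the exit of the peptide tunnel, had 451 and 478 FPKM, a ratio of 1.06 (1.03 to 1.10). These genes were named after their values were seen, and each difference is small beside the 1.5-fold threshold.

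The acidic stalk of the large subunit, which recruits translation factors, is built from Rplp0, Rplp1 and Rplp2. Rplp0 had 746 and 743 FPKM and Rplp1 had 830.1 and 833 FPKM, with ratios of 0.996 (0.977 to 1.01) and 1.004 (0.973 to 1.04). Rplp2 had 289 and 319 FPKM, a ratio of 1.10 (1.05 to 1.16). These intervals hold counting error only, and the stalk genes were not tested against each other. Rpl5 and Rpl11 bind the 5S ribosomal RNA, and the free particle they form inhibits Mdm2 and so stabilizes p53. Rpl5 had 339 and 346 FPKM, a ratio of 1.02 (0.996 to 1.04). Rpl11 had 559.96 and 571 FPKM, a ratio of 1.02 (0.986 to 1.05). Both intervals included 1.

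**Figure D4:**
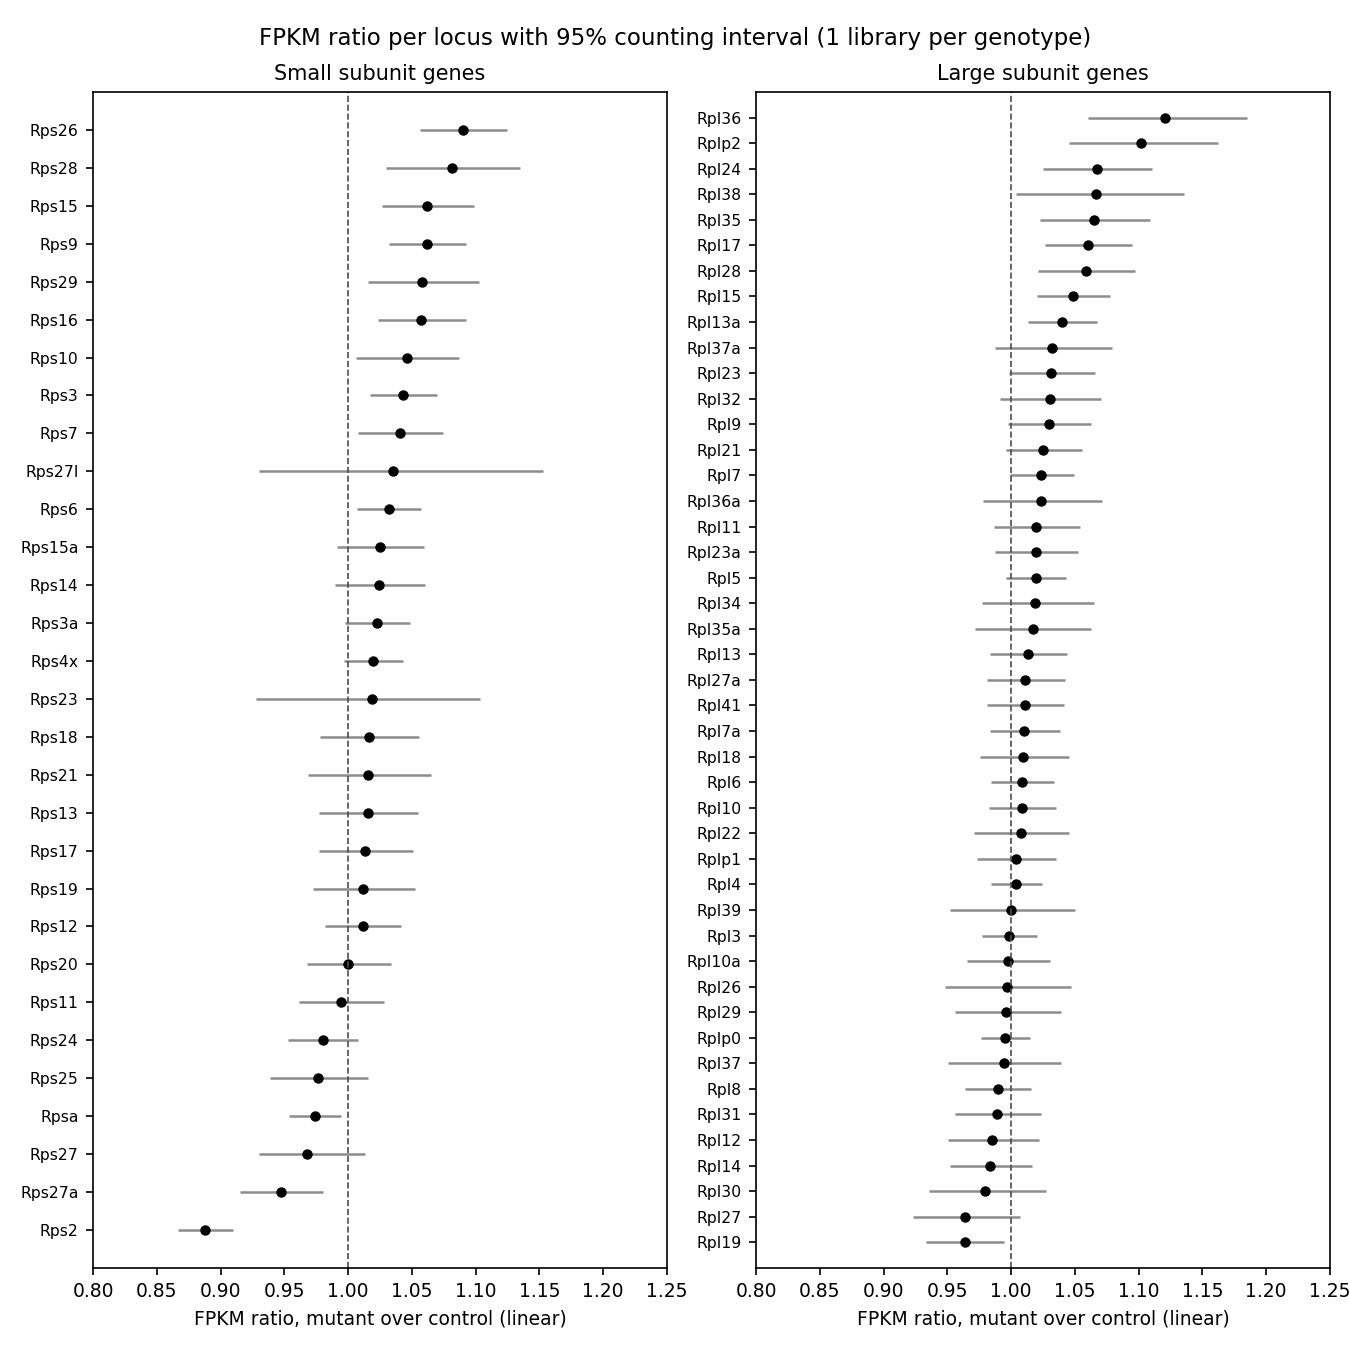
Ratio of FPKM (mutant over control, linear axis) of 75 measured ribosomal protein loci with the 95% counting interval of each from estimated reads (grey bars), small subunit left and large subunit right, 1 library per genotype. Ratios run from 0.888 in Rps2 to 1.12 in Rpl36, and 52 of the 75 intervals drawn include 1. Of the 78 measured loci 3 are not drawn, and their intervals lie above 1.

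Some ribosomal proteins have a second gene, which in some cases is used in particular tissues. The symbol rule took in 4 second genes, and others such as Rpl22l1 lie outside it. Of these 4, Rps27l, a p53-responsive relative of Rps27, was the only one measured, at 70.2 and 72.7 FPKM (ratio 1.04, 0.930 to 1.15). Rpl3l, the muscle form of Rpl3, was listed at 0 and 0.0300 FPKM, and Rpl10l, the testis form of Rpl10, at 0.0502 and 0. Rpl39l, a germ cell form of Rpl39, had 0.288 and 0.242 FPKM. The parent genes were abundant, with 590.3 and 589.5 FPKM for Rpl3, 673 and 678 FPKM for Rpl10 and 399.8 and 399.9 FPKM for Rpl39. Rpl3l and Rpl10l lay below the level of 3 reads in both libraries.

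The 4 X-linked members, Rpl10, Rpl36a, Rpl39 and Rps4x, had ratios of 1.01, 1.02, 1.0001 and 1.02. Rpl36a had 361 and 370 FPKM. They lay within the range of the autosomal loci.

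Several members had more than 1 listed transcript, and a few are given here. Rpl19 NM_001159483 was listed at 0.000673 and 12.6 FPKM, while NM_009078 had 503 and 472 FPKM. For Rps24, known for alternative splicing of its last exons, NM_011297 held 95.3% and 96.2% of the gene's FPKM. Rps24 NM_207635 had 9.29 and 5.71 FPKM, from about 153 and 115 reads. Rpl38, whose loss in mice alters the translation of Hox mRNAs, had 314 and 335 FPKM over 3 transcripts, of which NM_001048058 held 73.9% and 74.0%. This transcript had the status LOWDATA in the control library. The counting interval of a gene does not cover the error of dividing its reads between transcripts.

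The start sites of the members were searched for a pyrimidine run, since terminal oligopyrimidine tracts define the family's mRNAs. RefSeq start windows on GRCm38 were at hand for 60 of the 82 members. The motif was a C followed by at least 6 bases that are each C or T, in the 30 bases from 10 before to 20 after the start. It stood on the sense strand in 29 of 60 members (48.3%), and in 15.6% of all 27025 genes with such a window. On the other strand it stood in 5.0% of the members and 17.9% of all genes. Windows of 4 members are shown with the run in capitals, Rps27 as the locus with the second model, Rps26 and Rplp2 for their higher ratios and Rpl7a for its long run.
Rps27, chr3:90213629-90213658, minus strand: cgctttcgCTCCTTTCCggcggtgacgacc
Rps26, chr10:128626487-128626516, minus strand: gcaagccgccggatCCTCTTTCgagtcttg
Rplp2, chr7:141447641-141447670, plus strand: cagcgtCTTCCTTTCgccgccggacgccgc
Rpl7a, chr2:26910797-26910826, plus strand: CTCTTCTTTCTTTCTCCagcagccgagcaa
Measured loci with the run had a median log2 ratio of 0.02 (28 loci, 22 higher), and those without it one of 0.02 (29 loci, 21 higher). A window without the run says nothing of the true start, since RefSeq starts are approximate.

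The loci were also read by the length of their transcript. Of 32 loci under 600 nt, 29 were higher, with a median log2 ratio of 0.03. From 600 to 1000 nt 16 of 29 were higher, with a median of 0.01, and of the 17 loci of at least 1000 nt 13 were higher, with a median of 0.03. Of the other genes of at least 100 FPKM, 14 of 30, 12 of 43 and 97 of 261 were higher in the same length classes. Their medians were −0.01, −0.03 and −0.02, each below that of the ribosomal protein loci. In both sets the share of higher genes was smallest from 600 to 1000 nt. The part of transcript length in these values was not tested.

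Other genes of the ribosome were compared by lists. The 6 ribosome genes outside the symbol rule included Fau, which encodes a ribosomal protein fused to a ubiquitin-like protein, Gnb2l1, which encodes the scaffold Rack1, and Rpl22l1, Rpl7l1 and Rpl36al. Their median log2 ratio was 0.02, with 4 higher and 2 lower. Fau had 372 and 379.9 FPKM and Gnb2l1 had 559.7 and 564 FPKM. Rpl7l1 had the lowest ratio at 0.946 (0.888 to 1.01). Translation factors with terminal oligopyrimidine mRNAs numbered 18, of which 11 were higher and 7 lower, at a median of 0.02. Their highest ratios were those of the initiation factor genes Eif3f (161 and 171 FPKM, 1.06) and Eif3k (101 and 106 FPKM, 1.05). The lowest were those of Pabpc1, the poly(A)-binding protein, at 0.974 (0.954 to 0.995), and Naca, a chaperone of nascent chains, at 0.977. For Naca the interval from reads was 0.980 to 1.04, which includes 1 but not its FPKM ratio.

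Genes that build the ribosome lay on the other side. Of 55 measured genes of ribosome biogenesis, 44 were lower and 11 higher in the mutant library, beside 48.8% lower among all measured genes, with a median log2 ratio of −0.06. Their median level was 19.7 and 19.0 FPKM. Gar1, a core protein of the pseudouridylation particles, had 23.2 and 19.0 FPKM, a ratio of 0.820 (0.727 to 0.923). Polr1b, the second largest subunit of RNA polymerase I, had 12.0 and 10.2 FPKM, a ratio of 0.855 (0.780 to 0.938). At the upper end, Riok1, a kinase of late small subunit maturation, had a ratio of 1.15 (1.03 to 1.28), and Ebna1bp2, a nucleolar processing factor, one of 1.09 (1.0005 to 1.20). None of the 55 was 1.5-fold apart, and the list's difference from the ribosomal protein genes was not tested.

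Of 16 regulators of ribosomal protein synthesis 5 were higher and 11 lower, at a median of −0.04. Mycn, a Myc factor that drives ribosome production, had 15.5 and 12.8 FPKM, a ratio of 0.825 (0.746 to 0.914). Eif4ebp1, a translation inhibitor held off by mTOR, had a ratio of 0.910 (0.781 to 1.06). The S6 kinase gene Rps6kb2 and the mTOR activator Rheb had ratios of 1.17 (1.02 to 1.33) and 1.11 (1.03 to 1.20). The 76 mitochondrial ribosomal protein genes, a separate family, were split with 37 higher and 39 lower and a median of −0.0042. Their ratios ran wider than those of the cytosolic family, from 0.809 in Mrpl4 and 0.805 in Mrpl44 to 1.16 in Mrpl52 and 1.17 in Mrps28, at levels of 8.09 to 45.4 FPKM in these 4 genes.

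**Figure D5:**
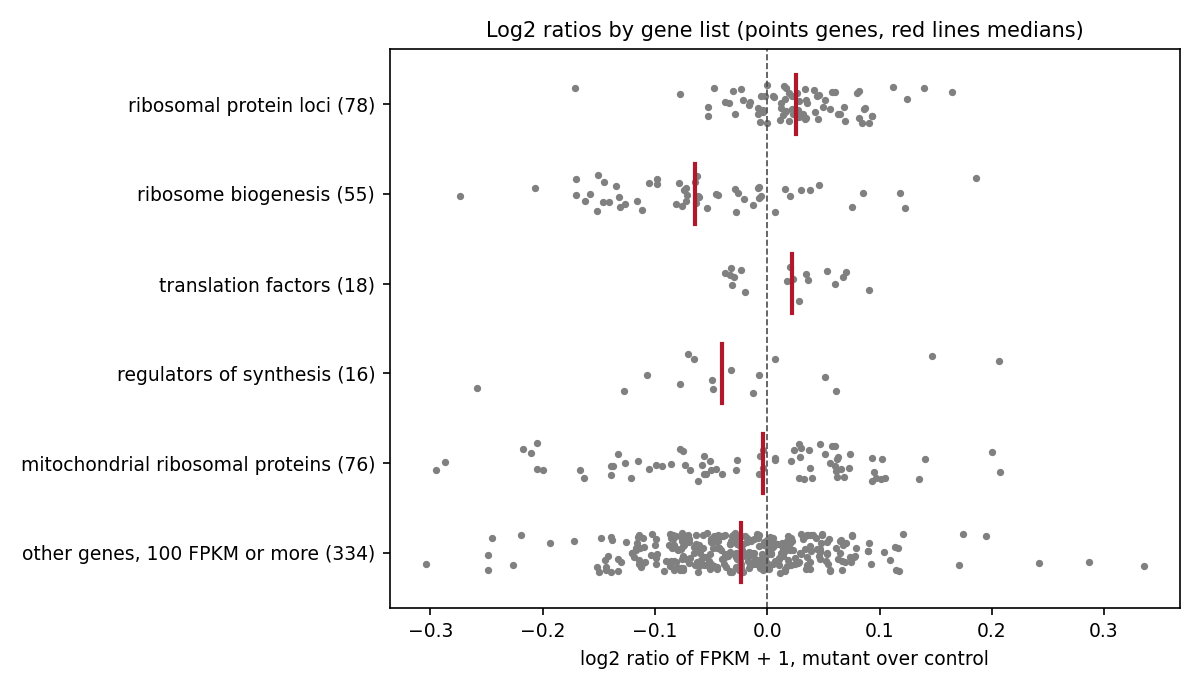
Log2 ratio of FPKM plus 1 (mutant over control) of each gene (points, spread vertically for view) by list, with the number of genes in brackets and the median as a red line. The 78 ribosomal protein loci have a median of 0.03, the 55 biogenesis genes one of −0.06 and the 334 other abundant genes one of −0.02.

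The libraries as a whole bear on these values as follows. Depth was estimated from the coverage at about 18900000 reads for the control and 23100000 reads for the mutant, and a member locus rested on a median of 6376 and 7868 reads. Osr1 had 56.8 and 18.4 FPKM, a ratio of 0.325. Tongue muscle, mesenchyme and epithelium markers were present in both libraries, and liver markers were at most 0.058 FPKM. Red cell markers were lower in 4 of 4 genes (summed 1309 and 1067 FPKM), as were the 6 epithelial (106 and 91.3 FPKM) and 4 neuronal ones (26.3 and 16.7 FPKM). The 3 bone markers were lower too, at low levels (4.68 and 3.76 FPKM summed). The 4 cartilage markers were higher (114 and 156 FPKM summed). Their part in the small differences of the ribosomal protein genes was not tested.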

How the data were processed

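RNA of embryonic day 12 mouse tongue was measured in 1 control and 1 mutant library, grouped by the genotype labels. Per the labels' protocols, RNA was prepared with a Qiagen micro kit and turned into amplified cDNA by NuGEN's Ovation chemistry (v2). Per the submitters' processing notes, Bowtie 0.12.7, TopHat 1.4.1 and the build mm9 were used. For the Cufflinks version, read length and strand setting, the sources used here give nothing. Each row of the deposited tables is 1 RefSeq transcript with its FPKM, its coverage (a signal not scaled for depth) and a status, per the file headers.

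FPKM of the 28107 rows was added up over 22072 symbols. Measured genes had 1 FPKM or more in either library with all rows OK, 12383 in number. Log2 ratios are of FPKM plus 1, and plain ratios are of FPKM. Ratios between the libraries have no test. Models covering at least 70% of the longer locus were summed as 1 locus. Coordinates of loci are on mm9 and those of start windows on GRCm38, counted from 1. Reads were estimated from coverage times length over a step of 47.4 bases. This step was the median of values within a preset range, from transcripts of at least 1000 nt, so it depends on that range. Read numbers, depth and intervals rest on it. Ratios of reads gave exact conditional (Clopper-Pearson) 95% intervals. Where a gene has more than 1 transcript, reads and FPKM can give different ratios. The intervals and the floor of 3 reads hold counting error and nothing else, because reads of amplified cDNA are not separate molecules. Functions were tested on simulated data. Coding sequences came from GENCODE M21 and start windows from RefSeq, both on GRCm38. They were matched by name and not by coordinates. Python 3.11.15, pandas 2.3.3, scipy 1.17.1 and Biopython 1.88 were used.

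Members and lists were chosen with earlier results of these data known. Loci with summed models, an alternative chosen after seeing the data, carry most of the report. The named genes were members at least 1.5-fold apart with their overlapping models, and the 5 highest and 5 lowest log2 ratios without an overlapping model. They also included the 5 most and 3 least abundant, and the second genes Rps27l, Rpl3l, Rpl10l and Rpl39l with their parents. Rpsa, the stalk and 5S genes, up to 4 genes of each other list at 5 FPKM, and Osr1 were named too. The remaining shared loci, the X-linked members, the transcripts of Rpl19, Rpl38 and Rps24, further loci whose interval excludes 1 and the other ribosome genes were named after their values were seen. Some members and list genes counted in the totals are not reported here by name.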

Additional observations from a re-analysis of the deposited data

How the results depend on the processing

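The median log2 ratios of all members, of the small subunit and of the large subunit stayed above 0 in all 11 alternatives, with ranges of 0.02 to 0.03, 0.03 to 0.04 and 0.01 to 0.02. The alternatives were a pseudocount of 0.1, no filter or 5 FPKM, rows of any status, centring on the median of all genes (which moves values by 0.0035), a TPM scale, quantile normalization, coverage times length, joined models and members without an overlapping model. The number of members at least 1.5-fold apart was 2, and 0 when all overlapping models were joined, 0 among the 65 members with no overlapping model and 0 when models on the same locus were summed with rows of any status, an alternative chosen after seeing the data. It was 3 with rows of any status, where Gm9846 enters. The members' share of all FPKM over symbols with every row OK was 11.5% and 11.9%, a ratio of shares of 1.04. Gm9846, Rpl34 and Rpl38 are left out there. The ratio was 1.02 with rows of any status (1.02106), without overlapping models (1.02119) and with models on the same locus summed (1.02101). As a share of fragments it was 1.02 over symbols with every row OK (1.02116) and 1.014 with rows of any status. The summed log2 ratio of Rps27 and Gm9846 was −0.05, and ran from −0.05 to −0.04 over 4 alternatives. No paired analysis was possible because there was 1 library per genotype, and no library could be left out. Depth limits members listed under about 3 reads (0.159 FPKM in the control for 1 kb), so Rpl3l and Rpl10l give no ratio.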

Other observations

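Ribosomal protein introns host small nucleolar RNAs, which guide the modification of ribosomal RNA. The tables held 35 small RNA models of up to 148 nt inside 24 member loci. They rested on a median of 3.45 estimated reads, so their ratios carry little information. Snord58b in Rpl17 was listed at 36.6 FPKM (about 38 reads) for the control and at 0 for the mutant, while Snord42b in Rpl23a was at 0 for the control and at 13.3 FPKM (about 16.9 reads) for the mutant. The hosts differed little, Rpl17 with 451 and 478 FPKM and Rpl23a with 635 and 647 FPKM. Both small RNAs were chosen after their values were seen.

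Models of ribosomal protein copies that do not lie on a member's locus were also listed. Rps4y2 had 29.2 and 32.7 FPKM, Rps19-ps3 had 31.0 and 30.6 FPKM and Rplp2-ps1 had 5.85 and 8.07 FPKM, the last with a ratio of 1.38 (1.06 to 1.81). Whether these reads came from the copies or from the parent genes Rps4x, Rps19 and Rplp2 was not tested.

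Another 6 members, Rpl5, Rpl31, Rpl32, Rpl35, Rps25 and Rps27a, overlap the locus of a model of another gene without sharing its span. The size of the overlap is not given here. These models had 0 to 31.8 FPKM, the highest being Cand2 at Rpl32 (31.8 and 29.7 FPKM), and Ccdc84 at Rps25 had 2.74 and 4.35 FPKM.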
